A study of Mus musculus with 16 samples.

Results

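Btg4 and the subunits of the CCR4-NOT deadenylase were examined in RNA-seq libraries of mouse oocytes before and after meiotic maturation, with and without the proteasome gene Psma7. The members are the entries of the expression table that carry the names Btg4, Cnot1, Cnot2, Cnot3, Cnot6, Cnot6l, Cnot7, Cnot8, Cnot10 and Cnot11. These 10 names have 11 entries among the 28618 entries (27987 names) of the table, because Cnot8 has 2 separate entries.

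The 16 libraries form 4 groups of 4 biological replicates: wildtype (WT) oocytes at the germinal vesicle (GV) stage, Psma7 cKO oocytes at the GV stage, WT eggs at metaphase II (MII) and Psma7 cKO eggs at MII. The Psma7 cKO genotype is Psma7 fl/fl;Zp3-Cre, in which the Zp3 promoter drives Cre recombinase in growing oocytes. Psma7, the gene of the α4 subunit in the 20S core of the proteasome, is thus deleted in the oocyte while the follicular cells keep it. All females were 3 to 4 weeks old and received 5 IU PMSG, a gonadotropin that makes follicles grow. GV oocytes were collected 44 h later, whereas for eggs hCG was injected at 44 h to start maturation and ovulation, and the eggs were taken from the oviduct 14 to 16 h after hCG and freed of cumulus cells with 0.3% hyaluronidase. Each library held 5 oocytes per the labels and was prepared by Smart-seq2, in which oligo-dT primes the cDNA. The authors quantified expression as FPKM, the fragments of a transcript relative to its length and to all mapped fragments of the library. FPKM is a share of a library, so a change in the amount of a transcript per oocyte and a change in all the others cannot be told apart. The labels give 5 oocytes for every library. For follicular cells left on them, fewer cells and less RNA per cell cannot be told apart. Because the cDNA was primed on poly(A) tails, the amount of an mRNA and the length of its tail cannot be told apart either.

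CCR4-NOT is the main cytoplasmic complex that shortens the poly(A) tails of mRNAs, which is the step that starts their decay. It carries a pair of nucleases, one of the CCR4 type (CNOT6 or CNOT6L) and one of the CAF1 type (CNOT7 or CNOT8), on the large scaffold CNOT1, together with the modules formed by CNOT2 with CNOT3 and by CNOT10 with CNOT11. Oocytes store maternal mRNAs during growth and clear many of them during maturation. BTG4, a member of the BTG/TOB family that is expressed in oocytes, binds the CAF1-type nuclease and brings the complex to translated maternal mRNAs.

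The depth estimated from the FPKM values was about 10540000 to 15650000 fragments per library (median 13625000), so that 1 FPKM of a transcript of 1 kb stands for about 10.5 to 15.7 fragments. At these depths 38.6% to 42.1% of the low values used lay within 0.1 of a whole number of fragments, so the estimate is approximate. Across all transcripts, Pearson's r between replicates was 0.965 to 0.992 over the 4 groups, with the lowest value among the Psma7 cKO eggs. Psma7 itself measured 142 to 201 FPKM at GV and 97.7 to 172 FPKM at MII in WT, against 11.1 to 18.0 FPKM at GV and 13.6 to 59.9 FPKM at MII in Psma7 cKO, so that no knockout library reached the WT range of its stage. The 12 oocyte markers (such as Gdf9, Zp3 and Bmp15) summed to 16073 to 17361 FPKM at GV and 10759 to 14882 FPKM at MII. Of 14 cumulus and granulosa cell markers 13 are in the table, and 11 of them averaged under 1 FPKM in every group, with Foxl2, Amh and Amhr2 at 0 in all eggs. At GV their sum was 12.3 to 14.3 FPKM in WT and 14.8 to 17.4 FPKM in the knockout, and at MII 17.2 to 21.1 and 19.1 to 20.7 FPKM. It came mostly from Cyp19a1 and Kitl, whose WT means went from 8.10 to 13.5 FPKM and from 3.86 to 5.87 FPKM from GV to MII. In Psma7 cKO they went from 9.59 to 13.7 FPKM and from 4.82 to 6.11 FPKM. The part of this sum in the results below was not tested.

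Btg4 was the most abundant member by more than an order of magnitude in every group. In WT GV oocytes the 4 libraries held 981, 1108, 1246 and 977 FPKM, and in WT eggs 2965, 2796, 2734 and 2779.9 FPKM. The Psma7 cKO GV oocytes held 1190.1, 1006, 964 and 1017 FPKM, and the Psma7 cKO eggs 2369, 2649.6, 2493 and 2756 FPKM. All 8 libraries of eggs thus lay above all 8 libraries of GV oocytes, and within each stage the genotypes overlapped. The mean rose from 1078 ± 127 to 2819 ± 101 FPKM in WT (SD, n = 4) and from 1044 ± 99.7 to 2567 ± 171 FPKM in Psma7 cKO.

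Tested with limma on log2 of FPKM floored at 1, the Btg4 increase in WT was 1.39 ± 0.09 (log2 fold change ± SE, adjusted p = 1.73e-07), which is 2.63-fold with a 95% interval of 2.28 to 3.03. In Psma7 cKO it was 1.30 ± 0.09 (adjusted p = 3.85e-06). Two-sided exact permutation tests of 4 libraries against 4 gave p = 0.0286 for each increase (n = 4 and 4), the smallest p that the 70 arrangements allow, and 0.0571 after adjustment over 4 tests. Btg4 was not called different between genotypes: the log2 difference (Psma7 cKO minus WT) was -0.04 in GV oocytes (95% interval -0.28 to 0.19, adjusted p = 0.92) and -0.14 in eggs (-0.30 to 0.02, adjusted p = 0.234). The exact permutation p for eggs was 0.0571, with 3 of the 4 Psma7 cKO eggs below the lowest WT egg. The difference between the genotypes in the size of the increase was -0.09 (95% interval -0.36 to 0.18, limma, adjusted p = 0.776).

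**Figure D1:**
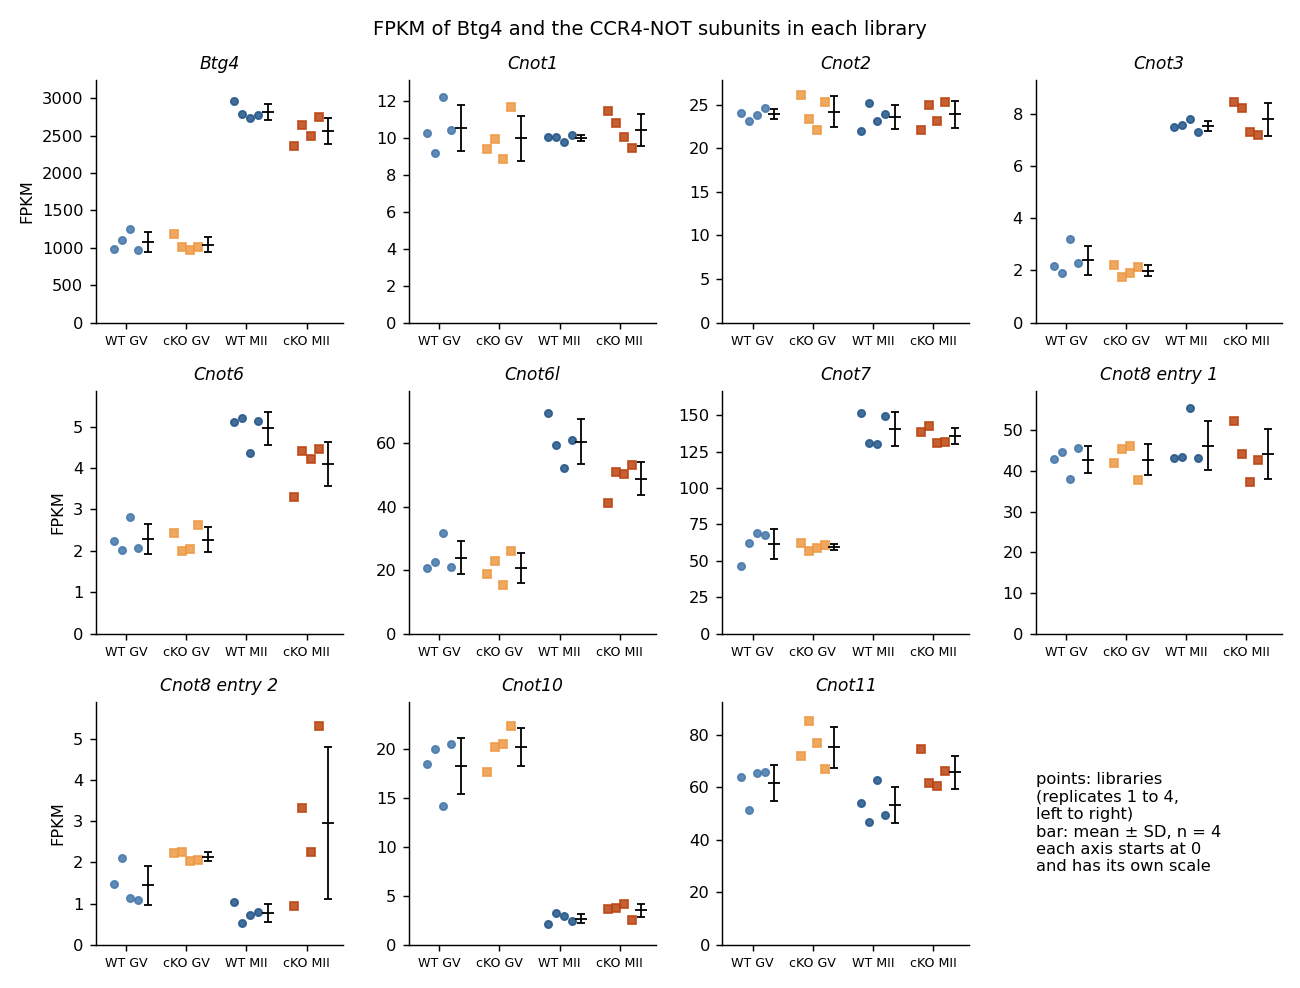
FPKM of each member entry in each library, with the 4 groups along the horizontal axis and FPKM on the vertical axis, which starts at 0 and has its own scale in each panel; circles are WT, squares Psma7 cKO, and the black bar is the mean ± SD of 4 libraries. Btg4, Cnot3, Cnot6, Cnot6l and Cnot7 lie higher in all eggs than in all GV oocytes, and Cnot10 lies lower, from 18.3 to 2.67 FPKM in WT.

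The 3′ ends of the members are shown because dormant oocyte mRNAs are known to gain poly(A) tails through a cytoplasmic polyadenylation element (CPE) close to the poly(A) signal, and the libraries were primed on tails. The sequences come from GENCODE release M21 (GRCm38), the transcript models are GENCODE's, and the deposited table does not say which transcript an entry stands for. Capitals mark the CPE letters TTTTAT or TTTTAAT and the poly(A) signal letters AATAAA or ATTAAA, searched on the transcript strand only; TTTTAAT can share bases with AATAAA. All 6 windows lie in a 3′ UTR and are written 5′ to 3′ on that strand. Btg4 (chromosome 9, plus strand, 51060901 to 51119875) is shown by transcript Btg4-203, with a CPE 96 bases and a poly(A) signal 30 bases before its end, at chr9:51119476-51119504 and chr9:51119542-51119571. Cnot3 (chromosome 7, plus strand, 3645268 to 3661109) has both motifs in one window of transcript Cnot3-201, at chr7:3661076-3661105. Cnot7 (chromosome 8, minus strand, 40492540 to 40515847), Cnot6l (chromosome 5, minus strand, 96070333 to 96164171) and Cnot2 (chromosome 10, minus strand, 116485161 to 116581511) are shown by the poly(A) signals of Cnot7-201 at chr8:40492550-40492579, Cnot6l-210 at chr5:96070340-96070369 and Cnot2-203 at chr10:116485171-116485200.
Btg4-203, CPE: ctttatgtaaaaTTTTATgaacactagtg
Btg4-203, poly(A) signal: tgccggtgataaAATAAAatgaattatagg
Cnot3-201, poly(A) signal and CPE: tttatgAATAAAtagTTTTATatgacggct
Cnot7-201, poly(A) signal: aaagcttttgtaAATAAAggcttcaaaaat
Cnot6l-210, poly(A) signal: ttccctgtaggcAATAAAtggccattttgc
Cnot2-203, poly(A) signal: tcttctctttgtAATAAAgtagaaaagctc

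Within the last 150 bases, 6 of the 26 annotated ends of 9 members (23.1%) held CPE letters, against 22.7% of the 17405 ends of all genes with a mean of at least 1 FPKM. They were ends of Btg4, Cnot1, Cnot3 and Cnot7. Among the Btg4 ends only that of Btg4-203 held both motifs, with CPE letters also 125 bases before it. The end of Btg4-201 held CPE letters without a poly(A) signal, and that of Btg4-202 a poly(A) signal without CPE letters. For Cnot7 the letters are in transcript Cnot7-211, the last of them 20 bases before its end, and not in the window of Cnot7-201. None of the 3 ends of Cnot6l and none of the 7 ends of Cnot2 held them within this window. A poly(A) signal in the last 40 bases was found in 18 of the 26 ends (69.2%) and in 65.0% of all ends. Among ends with such a signal, 3 of 18 member ends (16.7%) held CPE letters, against 25.8% of all 11310. Counted by gene, 4 of the 9 members (44.4%) had CPE letters at an end, against 32.8% of all 8872 genes. With only ends that have such a signal, it was 3 of 8 members (37.5%), against 30.1% of 7511 genes. Cnot8 was not scanned. Of the genes printed above, Btg4, Cnot3, Cnot7 and Cnot6l are those described here as higher in eggs, and Cnot2 is shown beside them as a member that was not called. Cnot1, also not called and not printed, held CPE letters in transcripts Cnot1-201 and Cnot1-202, 64 and 71 bases before the end. A link between these letters and the changes was not tested.

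Cnot7, one of the CAF1-type nucleases, was the next most abundant member in eggs. It measured 46.5, 62.2, 69.2 and 67.8 FPKM in the WT GV oocytes and 152, 131, 131 and 149 FPKM in the WT eggs. The Psma7 cKO libraries held 62.0, 57.1, 59.0 and 60.7 FPKM at GV and 138, 143, 131 and 131 FPKM at MII. Every egg library lay above every GV library. The log2 fold change from GV to MII was 1.21 ± 0.13 in WT (SE, limma, adjusted p = 5.83e-06) and 1.19 ± 0.07 in Psma7 cKO (adjusted p = 1.74e-06), a 2.31-fold and a 2.28-fold rise. Between genotypes the differences were -0.03 in GV oocytes (95% interval -0.30 to 0.25) and -0.05 in eggs (-0.21 to 0.11), and neither was called.

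Cnot8 encodes the paralogous CAF1-type nuclease, and neither of its table entries was called between stages. The higher one (entry 1) measured 43.0, 44.6, 37.9 and 45.5 FPKM in WT GV oocytes and 43.1, 43.3, 55.4 and 43.1 FPKM in WT eggs. In the Psma7 cKO it measured 41.9, 45.3, 46.1 and 37.9 FPKM in GV oocytes and 52.4, 44.2, 37.4 and 42.7 FPKM in eggs. The groups overlapped throughout, and the log2 fold changes from GV to MII were 0.11 (95% interval -0.12 to 0.34) in WT and 0.04 (-0.23 to 0.30) in Psma7 cKO, neither of them called. Rescaling the libraries by the median ratio of expressed transcripts, which shifts the change of every transcript from GV to MII by 0.23 in WT and 0.20 in Psma7 cKO on the log2 scale, put the WT change of this entry at 0.34 and above the threshold (limma, adjusted p = 0.00948).

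The ratio of Cnot7 to Cnot8 within a library, with both Cnot8 entries summed, does not depend on the scaling of that library. It was 1.04, 1.33, 1.77 and 1.45 in WT GV oocytes and 3.44, 2.98, 2.33 and 3.40 in WT eggs. In the Psma7 cKO it was 1.41, 1.20, 1.22 and 1.52 in GV oocytes and 2.59, 3.00, 3.31 and 2.74 in eggs. The stages did not overlap in either genotype, and the ratio was 2.18 times higher in eggs in both (n = 4 and 4, exact permutation p = 0.0286 in each genotype, two-sided, on log2 ratios). That p is the smallest possible, and after adjustment over the 8 ratio tests it was 0.0571, which does not pass 0.05. Between genotypes the mean log2 ratio differed by -0.05 in GV oocytes (exact permutation p = 0.8, n = 4 and 4) and by -0.05 in eggs (p = 0.743).

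The lower Cnot8 entry (entry 2) made up 1.21% to 11.1% of the summed Cnot8 FPKM. It measured 1.46, 2.096, 1.13 and 1.08 FPKM in WT GV oocytes and 2.23, 2.24, 2.04 and 2.05 FPKM in Psma7 cKO GV oocytes. In WT eggs it measured 1.05, 0.532, 0.724 and 0.786 FPKM, and in Psma7 cKO eggs 0.941, 3.31, 2.25 and 5.32 FPKM. Psma7 cKO egg replicate 1 lay among the WT eggs, while the other 3 lay above all of them. In WT maturation and between eggs this entry reached the required mean of 1 FPKM only through the group in which it was higher, so its values there are a description. The difference in eggs was 1.31 (log2, 95% interval 0.34 to 2.28) and was not called (limma, adjusted p = 0.0859), and without Psma7 cKO egg replicate 1 it was 1.75 and was called (adjusted p = 0.031). The 4 Psma7 cKO eggs had the same order for this entry and for Psma7, which measured 13.6, 50.3, 35.0 and 59.9 FPKM in replicates 1 to 4, and the part of that order in the result was not tested. From GV to MII its log2 fold change was -0.46 in WT (95% interval -0.90 to -0.02), with no overlap between stages, and 0.23 in Psma7 cKO (-0.73 to 1.19), neither of them called (limma, adjusted p = 0.0544 and 0.641). The WT change was called without WT GV replicate 3 (-0.56, adjusted p = 0.0296) or replicate 4 (-0.58, adjusted p = 0.023), and the Psma7 cKO change without egg replicate 1 (0.67, adjusted p = 0.0458). The floor of 1 FPKM bears on this entry, since 4 of its 16 values lie below it.

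Cnot6l, a CCR4-type nuclease, rose to rank 3 of the member means in WT eggs, where its range overlapped that of Cnot11. In Psma7 cKO eggs Cnot6l had rank 4. Its values were 20.6, 22.6, 31.7 and 20.9 FPKM in WT GV oocytes and 69.3, 59.3, 52.1 and 60.8 FPKM in WT eggs. In the Psma7 cKO they were 18.8, 22.9, 15.4 and 26.1 FPKM in GV oocytes and 41.1, 51.0, 50.1 and 53.0 FPKM in eggs. The stages did not overlap in either genotype, and the rise was 2.55-fold in WT (log2 fold change 1.35 ± 0.14, SE, limma, adjusted p = 6.82e-06) and 2.38-fold in Psma7 cKO (1.25 ± 0.17, adjusted p = 0.000118). In eggs the Psma7 cKO mean was 48.8 ± 5.25 FPKM against 60.4 ± 7.09 FPKM in WT (SD, n = 4), a log2 difference of -0.31 (95% interval -0.55 to -0.06) that was not called after adjustment over all tested transcripts (limma, adjusted p = 0.103), with 1 of the 4 Psma7 cKO eggs above the lowest WT egg.

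Cnot6, the paralog of Cnot6l, was a low member throughout. It measured 2.23, 2.01, 2.83 and 2.07 FPKM in WT GV oocytes and 5.11, 5.22, 4.36 and 5.14 FPKM in WT eggs. In the Psma7 cKO it measured 2.43, 1.99, 2.04 and 2.62 FPKM in GV oocytes and 3.31, 4.40, 4.22 and 4.45 FPKM in eggs. It rose 2.18-fold in WT (log2 fold change 1.13 ± 0.14, SE, limma, adjusted p = 2.68e-05) and 1.80-fold in Psma7 cKO (0.85 ± 0.15, adjusted p = 0.000687), again with no overlap between stages. The genotype difference was -0.01 in GV oocytes (95% interval -0.37 to 0.36) and -0.28 in eggs (-0.58 to 0.02), and neither was called.

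Per library, Cnot6l exceeded Cnot6 by 7.54 to 13.6 times. The ratio was 9.23, 11.2, 11.2 and 10.1 in WT GV oocytes and 13.6, 11.4, 11.9 and 11.8 in WT eggs. In the Psma7 cKO it was 7.72, 11.5, 7.54 and 9.95 in GV oocytes and 12.4, 11.6, 11.9 and 11.9 in eggs. The stages did not overlap, although the highest GV ratios (11.2 in WT and 11.5 in Psma7 cKO) came close to the lowest ratios of eggs (11.4 and 11.6), and the mean log2 ratio was higher in eggs by 0.22 in WT and 0.40 in Psma7 cKO (n = 4 and 4, two-sided exact permutation p = 0.0286 in each genotype, and 0.0571 after adjustment over 8 tests). Compared with the ratio of Cnot7 to Cnot8, which was 2.18 times higher in eggs, the ratio of Cnot6l to Cnot6 was 1.17 times higher in WT eggs and 1.32 times higher in Psma7 cKO eggs. The size depends on the scale at the low level of Cnot6, since with 1 added to each FPKM the log2 differences were 0.45 and 0.57.

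**Figure D2:**
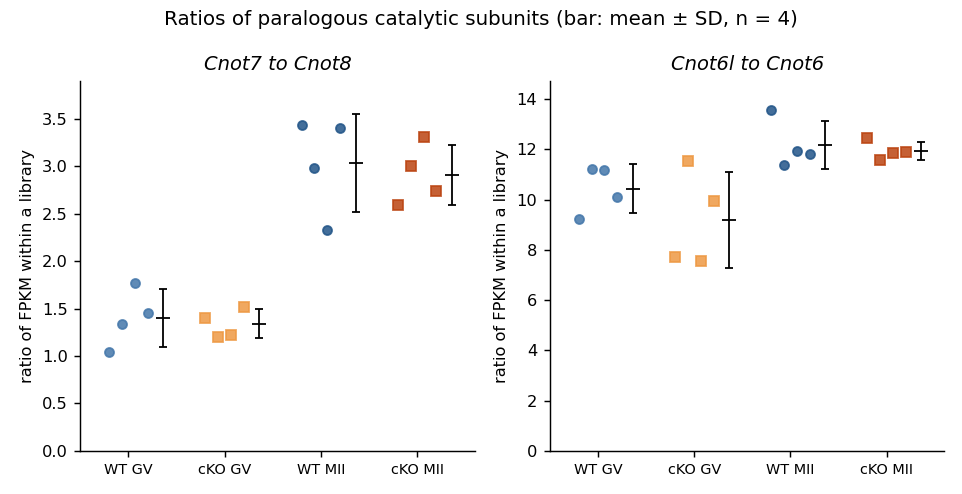
Ratio of FPKM within each library for the paralogous CAF1-type nucleases Cnot7 and Cnot8 (left) and the CCR4-type nucleases Cnot6l and Cnot6 (right), on vertical axes that start at 0; circles are WT, squares Psma7 cKO, and the black bar is the mean ± SD of 4 libraries. The Cnot7 to Cnot8 ratio averages 1.40 and 1.34 in WT and Psma7 cKO GV oocytes and 3.04 and 2.91 in eggs, whereas the Cnot6l to Cnot6 ratio averages 10.4 and 9.18 in GV oocytes and 12.2 and 11.9 in eggs.

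Of the subunits without nuclease activity, Cnot3 rose and Cnot1 and Cnot2 were not called. Cnot3, which pairs with CNOT2 in the NOT module, measured 2.16, 1.91, 3.19 and 2.30 FPKM in WT GV oocytes and 7.51, 7.57, 7.80 and 7.30 FPKM in WT eggs. In the Psma7 cKO it measured 2.195, 1.74, 1.90 and 2.13 FPKM in GV oocytes and 8.45, 8.25, 7.29 and 7.21 FPKM in eggs. It had the highest log2 fold change of the members in both genotypes, 1.69 ± 0.16 in WT (SE, limma, adjusted p = 2.55e-06) and 1.97 ± 0.13 in Psma7 cKO (adjusted p = 2.23e-06). Among all tested transcripts these values stood at percentiles 99.3 and 99.7. The difference between the genotypes in this rise was 0.29 (95% interval -0.14 to 0.71) and was not called.

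Cnot1, the scaffold on which the complex is built, measured 10.3, 9.18, 12.2 and 10.4 FPKM at GV and 10.0, 10.0, 9.78 and 10.2 FPKM at MII in WT, while the knockout libraries lay between 8.87 and 11.6 FPKM at both stages. Its log2 fold change from GV to MII was -0.07 in WT (95% interval -0.30 to 0.17) and 0.07 in Psma7 cKO (-0.20 to 0.34). Cnot2 ranged from 21.9 to 26.1 FPKM over all 16 libraries, with log2 fold changes of -0.02 (-0.20 to 0.15) and -0.02 (-0.23 to 0.19). Neither was called, and for both the direction depends on the scaling, since after rescaling by the median ratio the WT change was 0.16 for Cnot1 and 0.21 for Cnot2, the latter with an adjusted p of 0.0382 (limma). Cnot2 and Cnot3, whose proteins pair, stood at means of 23.9 and 2.39 FPKM in WT GV oocytes and of 23.5 and 7.54 FPKM in WT eggs.

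Cnot10, whose product pairs with CNOT11 at the amino-terminal part of CNOT1, was the one member that fell. It measured 18.5, 19.9, 14.2 and 20.5 FPKM in WT GV oocytes and 2.13, 3.21, 2.93 and 2.40 FPKM in WT eggs. The Psma7 cKO libraries held 17.6, 20.2, 20.5 and 22.4 FPKM at GV and 3.64, 3.77, 4.14 and 2.58 FPKM at MII. All eggs lay below all GV oocytes, and the log2 fold change was -2.78 ± 0.17 in WT (SE, limma, adjusted p = 6.78e-08) and -2.53 ± 0.16 in Psma7 cKO (adjusted p = 2.16e-06), which are falls of 6.87-fold and 5.78-fold. In eggs 3 of the 4 Psma7 cKO libraries lay above all WT libraries, with a log2 difference of 0.40 (95% interval -0.03 to 0.83) that was not called (adjusted p = 0.198).

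Cnot11, its partner, was not called between stages and was at a higher mean in the Psma7 cKO at both. It measured 64.0, 51.5, 65.5 and 65.9 FPKM in WT GV oocytes and 71.9, 85.3, 76.8 and 67.1 FPKM in Psma7 cKO GV oocytes. In eggs it measured 54.2, 46.9, 62.6 and 49.5 FPKM in WT and 74.5, 61.8, 60.6 and 66.2 FPKM in Psma7 cKO. The genotypes did not overlap in GV oocytes and overlapped in eggs, and the log2 differences of 0.29 (95% interval 0.05 to 0.53) and 0.31 (0.07 to 0.54) did not pass adjustment over all tested transcripts (limma, adjusted p = 0.379 and 0.0958). Its change from GV to MII was -0.21 in WT (-0.47 to 0.04, adjusted p = 0.11) and -0.19 in Psma7 cKO (-0.43 to 0.04, adjusted p = 0.115). The WT change passed the threshold without WT GV replicate 2 (-0.30, adjusted p = 0.029) or without WT egg replicate 3 (-0.29, adjusted p = 0.0346). Cnot10 and Cnot11 therefore stood at 18.3 and 61.7 FPKM in WT GV oocytes and at 2.67 and 53.3 FPKM in WT eggs.

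**Figure D3:**
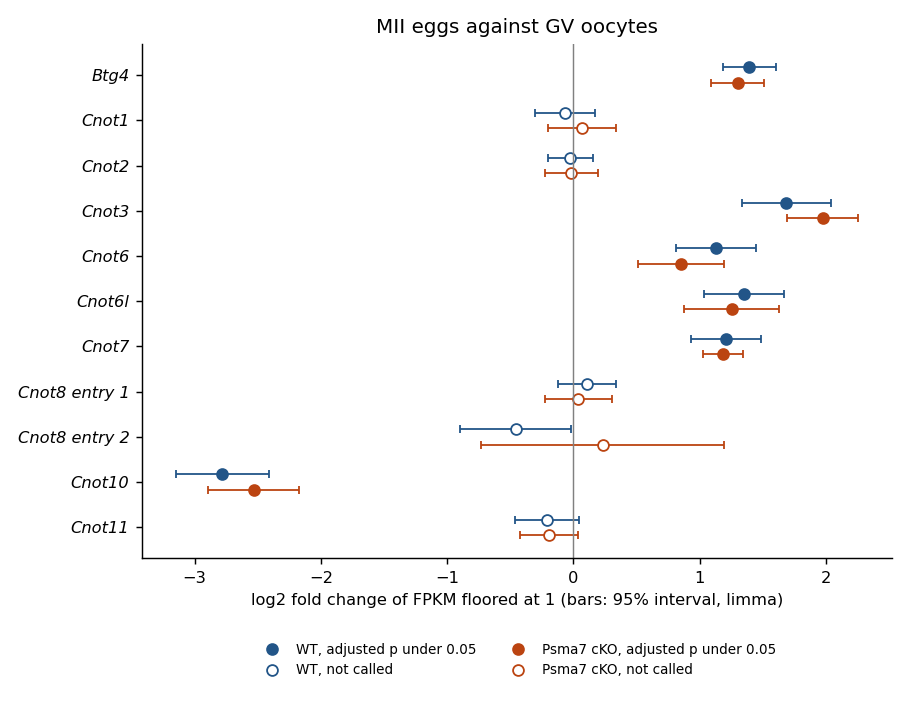
Log2 fold change from GV oocytes to eggs of each member entry in WT (blue) and Psma7 cKO (red), with 95% intervals from limma; filled points have an adjusted p under 0.05. The same 6 entries are filled in both genotypes: Cnot3, Btg4, Cnot6l, Cnot7 and Cnot6 to the right of 0, and Cnot10 at -2.78 and -2.53 to the left.

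In WT maturation 5 of the 11 member entries rose and 1 fell, where 78.5% of the 10475 tested transcripts were called (26.1% rose and 52.4% fell). In Psma7 cKO maturation the same 5 entries rose and the same 1 fell, where 74.0% of the 10748 tested transcripts were called (23.0% rose and 51.0% fell). The shares of the members called higher were 45.5% in both, and those called lower 9.09%. The filter of a mean of at least 1 FPKM was passed by 11 of 11 entries in every comparison. Entry 2 of Cnot8 passed it in WT maturation only through the GV oocytes, and between eggs only through the Psma7 cKO eggs. The median log2 fold change over the 11 entries was 0.11 in WT and 0.23 in Psma7 cKO, beside -0.44 and -0.42 over all tested transcripts. The 6 calls kept their direction after rescaling by the median ratio, which added Cnot2 and entry 1 of Cnot8 as higher in WT. Groups that did not overlap between stages were found for 7 of the 11 entries in WT (5 higher and 2 lower, entry 2 of Cnot8 among them, against 23.9% and 48.7% of tested transcripts) and for 6 in Psma7 cKO (5 higher and 1 lower, against 21.4% and 47.2%).

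**Figure D4:**
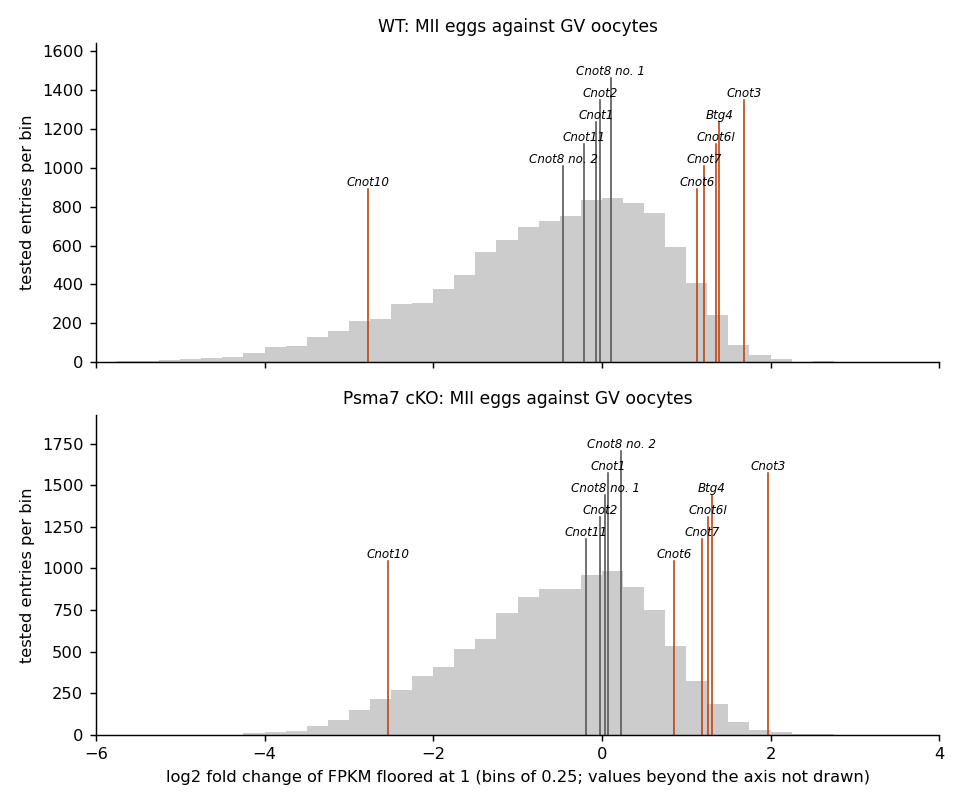
Distribution of log2 fold changes from GV oocytes to eggs over all tested transcripts (grey, bins of 0.25) in WT and Psma7 cKO, with a vertical line at each member entry, red where its adjusted p was under 0.05; the vertical axis counts transcripts. Btg4, Cnot3, Cnot6, Cnot6l and Cnot7 lie in the right flank, at percentiles 94.3 to 99.3 in WT, Cnot10 lies in the left flank at percentile 7.5, and the other members lie near the middle.

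Between the genotypes none of the 11 member entries was called, in GV oocytes or in eggs. In GV oocytes 13 of 11062 tested transcripts were called (0.118%, with 0.0994% higher and 0.0181% lower in Psma7 cKO), and in eggs 761 of 9492 (8.02%, with 6.53% higher and 1.49% lower). After rescaling by the median ratio, 537 transcripts were called higher and 223 lower in eggs, and again no member. At an unadjusted limma p under 0.05 there were 2 members in GV oocytes, entry 2 of Cnot8 (0.62 on the log2 scale) and Cnot11 (0.29), where 10.7% of tested transcripts passed. In eggs there were 3, Cnot6l (-0.31), entry 2 of Cnot8 (1.31) and Cnot11 (0.31), where 29.4% passed. Entry 2 of Cnot8 was tested in eggs only because of its level in the Psma7 cKO eggs, so its place here is a description. Cnot11 was the one member without overlap between genotypes in GV oocytes, where 4.25% of tested transcripts were higher without overlap, and in eggs there was none, where 13.6% were higher and 7.06% lower without overlap. The difference in the GV to MII change between the genotypes was called for none of the 11 entries (134 of 10615 tested transcripts, 1.26%, with 1.07% higher and 0.188% lower), and at an unadjusted p under 0.05 for none, where 17.7% passed. Its size ranged from -0.28 for Cnot6 (95% interval -0.71 to 0.16) to 0.69 for entry 2 of Cnot8 (-0.37 to 1.75). These comparisons use the same libraries as the maturation comparisons and are not independent of them.

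**Figure D5:**
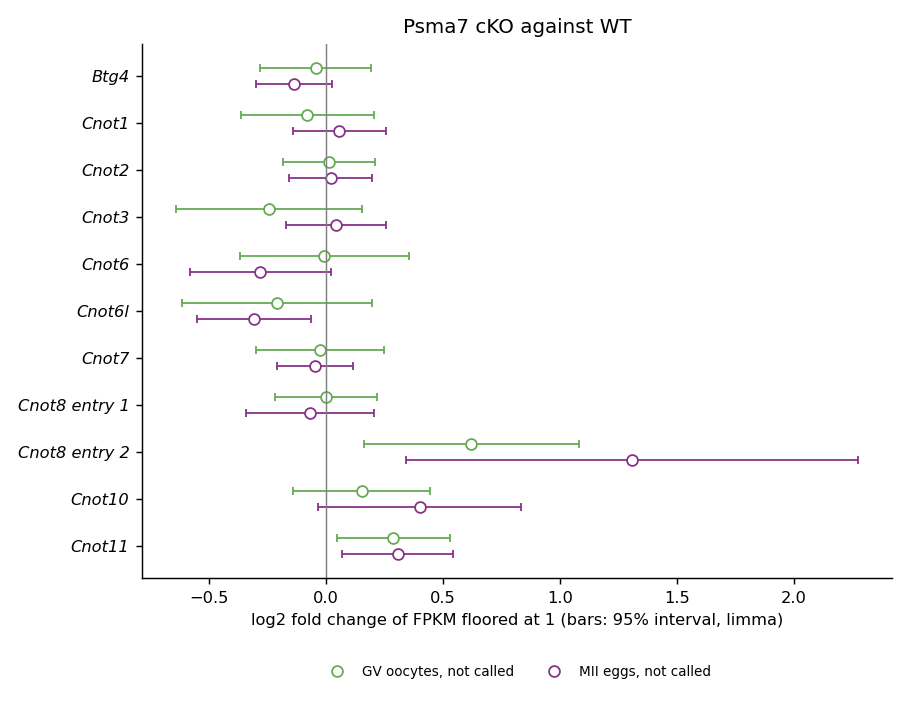
Log2 fold change of Psma7 cKO against WT for each member entry in GV oocytes (green) and eggs (purple), with 95% intervals from limma; open points did not pass an adjusted p of 0.05. All 22 points are open, and the widest interval is that of entry 2 of Cnot8 in eggs, from 0.34 to 2.28.

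The order of the levels was led by Btg4 in all groups. In WT GV oocytes it was followed by Cnot11 (61.7 FPKM) and Cnot7 (61.4 FPKM), whose ranges overlapped, then by entry 1 of Cnot8 (42.8), by Cnot6l and Cnot2 (23.9 each), whose ranges overlapped, by Cnot10 (18.3) and by Cnot1 (10.5), each apart from its neighbours. Cnot3, Cnot6 and entry 2 of Cnot8 came last and overlapped. In WT eggs Cnot7 stood apart at 141 FPKM, Cnot6l (60.4), Cnot11 (53.3) and entry 1 of Cnot8 (46.2) each overlapped with the next in that order, and Cnot2 (23.5), Cnot1 (9.99), Cnot3 (7.54), Cnot6 (4.96), Cnot10 (2.67) and entry 2 of Cnot8 (0.772) each stood apart. In WT, Cnot10 thus went from rank 7 to rank 10 of 11, and Cnot3 from rank 9 to rank 8. In Psma7 cKO, Cnot10 also went from rank 7 to rank 10, and Cnot3 from rank 11 to rank 8. There the ranges of Cnot6, entry 2 of Cnot8 and Cnot3 overlapped at GV, and those of Cnot6, Cnot10 and entry 2 of Cnot8 in eggs.

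The entries whose pattern over the 16 libraries was most like that of Btg4 were Anapc10, Rheb, E330034G19Rik, Pola1 and Rnft1, by the root mean square difference of centred log2 FPKM (0.07 to 0.09) among 4540 entries with a mean of at least 10 FPKM. Their WT means went from 17.04 to 45.7 FPKM for Anapc10, from 183 to 499 FPKM for Rheb, from 951 to 2381 FPKM for E330034G19Rik, from 12.4 to 31.6 FPKM for Pola1 and from 7.05 to 18.2 FPKM for Rnft1. Those most like Cnot7 were Ttc37, Ccdc6, Cep55, Trmt11 and Obox7 (0.11 to 0.12), with Ttc37 going from 10.0 to 22.5 FPKM and Cep55 from 52.5 to 109 FPKM in WT.

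Of the other subunits of CCR4-NOT and the other BTG/TOB proteins 8 are in the table. Among them 5 fell and 1 rose in WT maturation, and 5 fell and 2 rose in Psma7 cKO, so that 62.5% fell in each, beside 52.4% and 51.0% of all tested transcripts, with median log2 fold changes of -0.66 and -0.60. The WT count includes Tob1, which passed the filter there only through the GV oocytes. Cnot9, a core subunit that binds recruiting proteins, measured 58.0, 64.4, 66.4 and 60.8 FPKM in WT GV oocytes and 11.8, 11.3, 10.0 and 9.95 FPKM in WT eggs, and 54.7, 53.6, 60.9 and 53.9 FPKM against 16.0, 12.3, 20.5 and 15.5 FPKM in the Psma7 cKO. It fell by 2.54 on the log2 scale in WT (limma, adjusted p = 1.96e-09) and by 1.81 in Psma7 cKO (adjusted p = 6.46e-06), and every Psma7 cKO egg lay above every WT egg. That difference between eggs was 0.56 (95% interval 0.23 to 0.90, limma, adjusted p = 0.0501) and the difference between the genotypes in the fall was 0.72 (0.36 to 1.09, adjusted p = 0.05003), both just short of the threshold. Cnot9 and Cnot10 were thus the subunits of CCR4-NOT that fell.

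Among the relatives of Btg4, Tob1 went from 4.57 to 0.569 FPKM in WT (log2 fold change -2.14), Btg2 from 16.8 to 8.03 FPKM (-1.03), Tob2 from 22.2 to 12.3 FPKM (-0.84) and Btg1 from 2.11 to 1.51 FPKM (-0.49), and all 4 were called lower in both genotypes. For Tob1 all WT eggs lay under the floor of 1 FPKM, at 0.283 to 0.688 FPKM, so its -2.14 understates the fall between the means. Tob1 passed the filter in WT maturation only through the GV oocytes, so its call there is a description. Btg3 was at 2.07 and 2.67 FPKM in WT, which was not called (0.41, limma, adjusted p = 0.0815), and rose in Psma7 cKO (0.61, adjusted p = 0.00249). The E3 ubiquitin ligase Cnot4 was not called in WT (0.22) or Psma7 cKO (0.24). Tnks1bp1, which encodes a binding partner of the complex, rose by 0.83 in WT and 0.86 in Psma7 cKO. None of these relatives and partners was called between genotypes at either stage, and Tob1 was not tested in eggs because its mean was under 1 FPKM.

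Of the other deadenylases and related enzymes, 3 rose and 2 fell of 6 tested in WT maturation, and 2 rose and 4 fell of 7 tested in Psma7 cKO. The shares that fell were 33.3% and 57.1%, beside the 52.4% and 51.0% of all tested transcripts. They cover different sets, since Toe1, named only for this reason, was tested in Psma7 cKO and not in WT. Toe1 passed the filter there only through the Psma7 cKO GV oocytes (mean 2.48 FPKM, against 0.122 FPKM in eggs). Its fall is therefore a description. Angel2 and Noct, both related to the CCR4 nucleases, rose by 0.38 and 0.40 in WT (149 to 193 FPKM and 40.5 to 53.4 FPKM), Parn, a poly(A)-specific ribonuclease, fell by 0.66 (19.2 to 12.0 FPKM), and Pan2, the nuclease of the PAN2-PAN3 complex, was not called in WT (-0.04). In Psma7 cKO Angel2 rose by 0.33, Parn fell by 0.73, Pan2 fell by 0.30 (limma, adjusted p = 0.0374) and Noct was not called (0.23, adjusted p = 0.0594). Of the proteins that recruit CCR4-NOT or bind poly(A), 3 rose and 7 fell of 15 tested in WT, and 3 rose and 8 fell of 15 in Psma7 cKO, so that 46.7% and 53.3% fell. The Psma7 cKO count includes Pabpc1, named only for this reason. It passed the filter there only through the GV oocytes (mean 1.44 FPKM, against 0.818 FPKM in eggs), so its call is a description. Pabpn1l, the oocyte poly(A)-binding protein that acts with BTG4, was at 132 FPKM in WT GV oocytes and 125 FPKM in WT eggs and was not called (-0.09, 95% interval -0.39 to 0.21), nor was it in Psma7 cKO (0.33, -0.15 to 0.80). The eIF4E-binding protein gene Eif4enif1 fell by 0.80 in WT (142 to 80.6 FPKM), and the cytoplasmic poly(A)-binding protein genes Pabpc4 and Pabpc1l fell by 0.66 and 3.50 (83.3 to 52.7 FPKM and 90.5 to 7.84 FPKM). In Psma7 cKO the log2 fold changes of Eif4enif1, Pabpc4 and Pabpc1l were -0.77, -0.84 and -2.84, and all 3 were called. Between the genotypes 1 transcript of each of these last 2 lists was called in eggs, of 6 tested (16.7%) and of 14 tested (7.14%). Of all tested transcripts 8.02% were called in eggs, with 1.49% lower in Psma7 cKO. The 2 are named here after their values were seen. Pan3, the partner of Pan2, was lower in Psma7 cKO by 0.35 (limma, adjusted p = 0.0373), and the helicase gene Ddx6 by 0.42 (adjusted p = 0.0477).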

How the data were processed

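RNA-seq was analysed in 16 libraries, 4 replicates in each of 4 groups that the labels define, and table columns were assigned by name; 0 value columns were left unused. Per the submitters' processing notes TopHat2 2.1.1, Cufflinks 2.2.1 and the mm10 build were used, and the deposited values are FPKM as the authors made them. The table has 0 ERCC entries, so absolute amounts were not analysed. Labels give 5 oocytes per sample and no batch or animal, so p-values measure the spread between these pools. Entries that share a name were kept apart.

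FPKM was floored at 1, as in the study's methods, and log2 values of entries with a mean of at least 1 FPKM were tested with limma 3.58.1 in R 4.3.3 (intensity trend), on the 8 libraries compared or, for the interaction, on all 16. Benjamini-Hochberg adjustment ran over all tested entries with a threshold of 0.05. A fold change on floored values understates the change of transcripts near 1 FPKM. Single values and ratios were compared by exact permutation. Depth was inferred from the spacing of low FPKM values and from GENCODE M21 transcript lengths; counting intervals were not computed, as no counts are given. The limma fit and the depth estimate were tested on simulated data, and the exact permutation was not. The depth simulation held a larger share of whole-number values than the libraries did. Deviations from group means correlated at -0.496 to 0.285 between libraries sharing a replicate number, which were therefore not treated as pairs.

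Named transcripts, beside cell type markers picked as examples or because they were at 0, are all member entries, Psma7, every other CCR4-NOT subunit and BTG/TOB protein in the table, at most the 4 with the highest mean FPKM of each other list, and the 5 entries most like Btg4 and Cnot7; others are marked. The members and lists were chosen with earlier results of these data known. Alternatives were other floors, filters and scalings, no trend, summed entries, a replicate block, one fit on 16 libraries and each library left out in turn. Figures and exact tests used Python 3.11.15, numpy 2.4.6, pandas 2.3.3 and matplotlib 3.10.9.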

Additional observations from a re-analysis of the deposited data

Results flagged for a closer look

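Among the 44 groups of 4 libraries of the 11 member entries, 3 held a library far from the other 3, and chance alone gives this in about 1 in 20 groups. Cnot6 was lowest in WT egg replicate 3, at 4.36 FPKM, where the nearest WT egg had 5.11 FPKM. Entry 1 of Cnot8 was highest in the same library, at 55.4 FPKM beside a next value of 43.3 FPKM. Cnot11 was lowest in WT GV replicate 2, at 51.5 FPKM, with the nearest WT GV oocytes at 64.0 FPKM.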

How the results depend on the processing

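The 12 calls of members between stages (Btg4, Cnot3, Cnot6, Cnot6l, Cnot7 and Cnot10, each in WT and Psma7 cKO) kept their direction and their side of the threshold in 200 of 200 alternatives, and of the 991 alternatives of all 55 member results 920 did so, 10 passed the threshold newly in the same direction and 61 changed sign, 1 of which also passed it (Cnot2 in WT maturation after rescaling), all of them for results that had not been called. With a mean of at least 5 FPKM required, 3 members were called higher in either maturation in place of 5, because Cnot3 and Cnot6 were then not tested. In WT maturation 2 members were called lower with a floor of 0.1 FPKM or with log2(FPKM + 1), and 1 to 2 when single libraries were left out, the added ones being entry 2 of Cnot8 or Cnot11. In eggs 1 member was called higher in Psma7 cKO in one fit on 16 libraries (entry 2 of Cnot8, adjusted p = 0.0197, limma), and 0 to 1 when single libraries were left out. Entry 2 of Cnot8 passed the filter in WT maturation and between eggs only through the group where it was higher. Its calls in these alternatives are therefore a description. Replicate number as a block changed no call; the paired ratio tests then had an exact p of 0.125 for the differences between stages (Cnot7 to Cnot8, 1.12 in WT and 1.12 in Psma7 cKO), the smallest that 4 pairs allow. Rescaling by the median ratio turned the sign for Cnot1 (0.16), Cnot2 (0.21) and Cnot11 (0.017) in WT maturation, Cnot2 (0.18) and Cnot11 (0.0060) in Psma7 cKO maturation, Cnot2 between GV oocytes (-0.025), Cnot1 (-0.011), Cnot2 (-0.048) and Cnot3 (-0.024) between eggs, and Cnot2 (-0.023) and Cnot11 (-0.011) in the interaction. Summing the Cnot8 entries gave 0.023 in GV oocytes and 0.0037 in eggs, and with the higher entry alone the Cnot7 to Cnot8 ratio differed by 0.021 between eggs. Leaving out single libraries turned the sign in these ranges: in WT maturation Cnot1 -0.13 to 0.0083 and Cnot2 -0.057 to 0.0091; in Psma7 cKO maturation Cnot2 -0.061 to 0.019, Cnot8 entry 1 -0.046 to 0.12 and Cnot8 entry 2 -0.13 to 0.67; between GV oocytes Btg4 -0.11 to 0.029, Cnot2 -0.023 to 0.057, Cnot6 -0.078 to 0.10, Cnot7 -0.15 to 0.038 and Cnot8 entry 1 -0.057 to 0.057; between eggs Cnot2 -0.013 to 0.058 and Cnot8 entry 1 -0.15 to 0.022; in the interaction Cnot2 -0.037 to 0.043, Cnot6l -0.24 to 0.022, Cnot7 -0.084 to 0.11, Cnot8 entry 1 -0.15 to 0.022 and Cnot11 -0.043 to 0.10. The genotype difference of the Cnot7 to Cnot8 ratio ranged from -0.18 to 0.073 in GV oocytes and from -0.17 to 0.015 in eggs, and that of the Cnot6l to Cnot6 ratio from -0.057 to 0.028 in eggs. Except where stated, the cause was not tested. The members under 3 FPKM in a group (Cnot3, Cnot6, Cnot10 and Cnot8 entry 2) rest on the fewest fragments per kb.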
